A study of Mus musculus with 6 samples.

Results

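The enzymes that build sterols and fatty acids were followed in hippocampal mRNA of mice with an induced deletion of Dicer1 in forebrain neurons. The set holds 31 genes, of 25896 gene symbols in the deposited tables and of 17405 genes that passed a filter on low counts; all 31 passed it. A member was found by its symbol, after the transcript number was removed, and was represented by the transcript with the highest mean raw count over the 6 libraries. Of the 31, 18 belong to sterol synthesis, 12 to fatty acid synthesis, desaturation, elongation and use, and 1, Stard4, encodes a sterol transfer protein. Sc4mol is the older symbol of the sterol methyl oxidase gene Msmo1 and is used as the tables give it.

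The Dicer1-ifKO mice were C57BL/6, carried Dicer1 flox/flox and CaMKIIa-creERT2, were given tamoxifen, and were killed 3 weeks later as adults of 3 months. The WT mice had the same strain, the same Dicer1 flox/flox alleles, the same tamoxifen treatment and the same age, and differed by having no Cre transgene. All were male. Each library was made from pooled hippocampal RNA of 3 mice, with 3 libraries per genotype, so 9 mice per genotype entered the libraries, while the design text gives 12 mice per genotype. The Camk2a promoter drives the recombinase in excitatory neurons of the forebrain, so glia, vascular cells and most interneurons keep Dicer1. No group carried the Cre transgene with an intact Dicer1, and the effects of the transgene and of the loss of Dicer1 cannot be told apart.

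Cholesterol is made from acetyl-CoA through mevalonate, isoprenoid diphosphates and squalene, and the sterol genes are switched on together by SREBP transcription factors when membranes run low in sterol. The adult brain is cut off from blood cholesterol by the blood-brain barrier and makes its own, mainly in oligodendrocytes and astrocytes, while neurons take up cholesterol delivered by glia and keep some synthesis. Fatty acid synthesis shares acetyl-CoA and part of the SREBP control, and in the brain it supplies myelin and membrane phospholipids.

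The promoters were read for 3 kinds of site through which sterol genes are known to be controlled: sterol regulatory elements, CCAAT boxes bound by NF-Y and GC boxes bound by Sp1. RefSeq promoter windows on GRCm38.p6 ran from 250 bases before to 50 bases after an annotated start. They were found for 24 members, 15 of the sterol genes and 9 of the fatty acid genes. An annotated start need not be that of the counted transcript. The only Acaca window, chr11:84195188-84195487, lies inside the counted transcript, which spans 84173122 to 84401651. The only Lpin1 window, chr12:16610917-16611216, lies outside the counted transcript, which spans 16535669 to 16589770. Sqle, Fdft1, Fdps, Scd1, Scd2, Fads1 and Stard4 had no window in the table used. The 250 bases before the start are printed for 3 sterol genes, namely Hmgcs1 with a sterol regulatory element, Mvk with 5 CCAAT boxes and Sc4mol with a low p in the comparison of genotypes, and for Elovl6, a fatty acid gene with none of these motifs. They read 5′ to 3′ on the strand of the gene, and capitals mark CCAAT or its complement ATTGG and matches to the sterol regulatory element patterns TCACNCCAC and CACNCCA.
Hmgcs1, chr13:119690101-119690350, plus strand: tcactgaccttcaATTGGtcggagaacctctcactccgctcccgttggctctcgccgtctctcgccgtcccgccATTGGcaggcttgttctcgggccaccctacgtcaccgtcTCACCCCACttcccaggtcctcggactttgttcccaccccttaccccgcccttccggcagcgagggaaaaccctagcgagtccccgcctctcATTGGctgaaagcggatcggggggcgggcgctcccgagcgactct
Mvk, chr5:114444019-114444268, plus strand: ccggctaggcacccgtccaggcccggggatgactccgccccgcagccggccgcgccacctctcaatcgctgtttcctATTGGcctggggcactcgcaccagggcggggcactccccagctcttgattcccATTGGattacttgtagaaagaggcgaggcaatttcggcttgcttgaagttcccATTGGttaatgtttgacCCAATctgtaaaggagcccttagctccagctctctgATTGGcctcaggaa
Sc4mol, chr8:64733579-64733828, minus strand: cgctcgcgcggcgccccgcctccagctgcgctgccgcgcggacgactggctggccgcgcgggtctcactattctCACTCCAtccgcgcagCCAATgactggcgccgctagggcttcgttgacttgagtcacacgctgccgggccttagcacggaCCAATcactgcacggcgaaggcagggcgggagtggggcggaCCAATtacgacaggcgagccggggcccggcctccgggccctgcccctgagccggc
Elovl6, chr3:129532136-129532385, plus strand: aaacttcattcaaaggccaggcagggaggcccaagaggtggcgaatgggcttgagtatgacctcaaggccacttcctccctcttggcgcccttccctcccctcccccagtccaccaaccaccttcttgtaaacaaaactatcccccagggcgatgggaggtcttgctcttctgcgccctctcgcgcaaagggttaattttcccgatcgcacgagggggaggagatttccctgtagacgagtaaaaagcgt

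The Hmgcs1 stretch holds 3 CCAAT boxes and 1 match to TCACNCCAC, the longer pattern. Sc4mol holds 3 CCAAT boxes and 1 match to the shorter CACNCCA, a pattern that lies within TCACNCCAC, so every match to the longer pattern is also a match to the shorter. Over the whole 300-base windows, read on both strands, CCAAT stood in 14 of the 15 sterol genes (93.3%), in 5 of the 9 fatty acid genes (55.6%) and in 41.1% of the 27025 genes with a window. The GC box GGGCGG stood in 13 of 15 sterol genes (86.7%), 4 of 9 fatty acid genes (44.4%) and 38.2% of all genes. Acaca and Lpin1, whose windows lie away from the start of the counted transcript, are among the fatty acid genes without CCAAT and without GGGCGG. The fatty acid shares therefore depend in part on which start the window was set at. TCACNCCAC was found in 1 of 15 sterol genes, in 0 of 9 fatty acid genes and in 1.44% of all genes, and CACNCCA in 3 of 15 sterol genes, 1 of 9 fatty acid genes and 20.6% of all genes, so its share in the sterol genes was near that of all genes. The E-box CACGTG, a site of bHLH factors, stood in 2 of 15, 1 of 9 and 8.09%. These matches describe letters in a window; binding was not measured.

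The representative transcripts took 15409074 to 20677845 reads per library in Dicer1-ifKO and 11832794 to 16125481 in WT. WT replicate 1 stood apart on the leading principal component, at -19.4 against -0.275 to 8.66 for the other 5 libraries. Its reads also leaned toward short transcripts: across 14647 genes, its deviation from the mean had a Spearman correlation of -0.321 with transcript length, against 0.0908 to 0.183 in the Dicer1-ifKO libraries and -0.124 and 0.0953 in the other WT libraries. Dicer1 itself was counted over the whole gene as a single transcript, at 58.2, 62.9 and 58.0 CPM in Dicer1-ifKO and 55.6, 62.0 and 55.8 CPM in WT, with an estimated log2 fold change of 0.04 (SE 0.0601, adjusted p = 0.849), which does not resolve the deleted exons and so checks nothing. Esr1 encodes the estrogen receptor, a form of which is part of the CreERT2 fusion. It had 10.1, 13.7 and 12.0 CPM in Dicer1-ifKO and 4.001, 4.78 and 3.26 CPM in WT, and was called higher in Dicer1-ifKO with an estimated log2 fold change of 1.58 (SE 0.150, adjusted p = 7.53e-06). Whether these reads came from the transgene or from the mouse gene was not tested.

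Most transcripts of sterol synthesis enzymes had lower estimates in Dicer1-ifKO than in WT hippocampus, by a small amount: 16 of the 18 lay below 0, with a median log2 fold change of -0.13. Those of fatty acid synthesis lay about 0, with a median of 0.03. No member passed the test over all genes. The lowest sterol estimates were those of Sqle, Mvk, Sc4mol and Fdft1, at -0.28, -0.26, -0.21 and -0.21. In RNA of whole tissue, fewer cells of a type and less RNA per cell cannot be told apart.

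Under the quasi-likelihood test of edgeR, with p-values adjusted over all genes by Benjamini-Hochberg, 0 of the 31 members had an adjusted p below 0.05, where 0.161% of all genes did (0.0345% lower and 0.126% higher in Dicer1-ifKO). DESeq2 called 1 member, Sqle, at an adjusted p of 0.0440, where it called 0.316% of all genes, and edgeR without the filter on low counts called the same gene at 0.0152, where it called 0.673%. At an unadjusted p below 0.05, 9 members were lower and 0 were higher, where 4.80% of all genes were lower, 5.63% higher and 10.4% either. All 3 Dicer1-ifKO values lay below all 3 WT values in 9 members and above them in 2, where 8.08% of all genes had the lower pattern, 7.99% the higher and 16.1% either.

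Over all genes the log2 fold change, Dicer1-ifKO over WT, was below 0 in 51.0%, with a median of -0.00; it was below 0 in 4 of the 12 fatty acid genes. The 8 genes of the mevalonate branch were all below 0, with a median of -0.15, and 8 of the 10 genes from squalene to cholesterol were, with a median of -0.08. No test was run on these medians, and members share regulators and libraries and are not replicates.

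**Figure D1:**
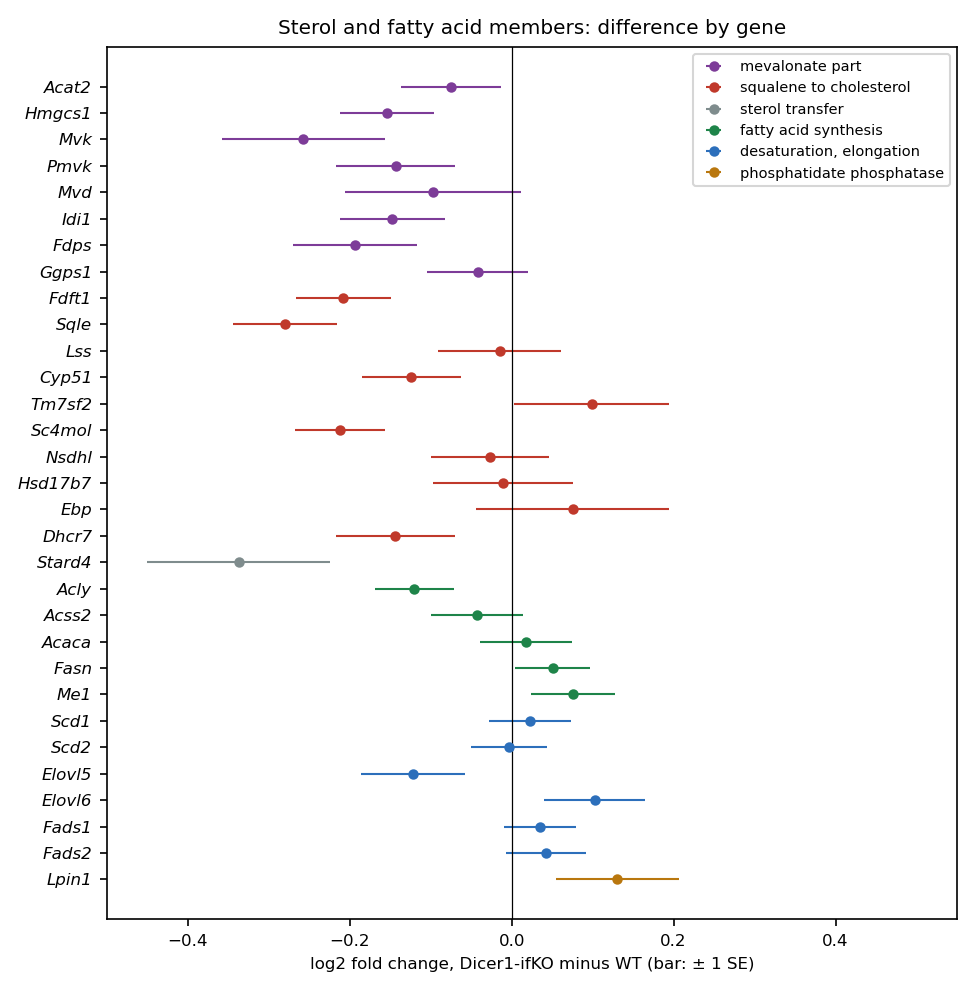
Log2 fold change, Dicer1-ifKO over WT, of each of the 31 members (edgeR estimates, bars are ± 1 SE), ordered by role. The sterol genes lie mostly below 0, with a median of -0.13, and the fatty acid genes scatter about 0, with a median of 0.03.

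In the mevalonate branch, Hmgcs1 encodes the cytosolic HMG-CoA synthase, an early enzyme of the pathway. It had 183, 187 and 160.1 CPM (CPM, the count scaled to library size after TMM normalisation) in Dicer1-ifKO and 195, 209 and 184 CPM in WT, with an estimated log2 fold change of -0.15 (SE 0.0577, adjusted p = 0.331). Dicer1-ifKO replicate 3 was the lowest library, and the highest Dicer1-ifKO value exceeded the lowest WT value, so the groups overlapped. Acat2, the thiolase that makes acetoacetyl-CoA before it, had 38.2, 36.9 and 38.5 CPM in Dicer1-ifKO and 39.0, 39.5 and 41.1 CPM in WT, with an estimated log2 fold change of -0.08 (SE 0.0618, adjusted p = 0.734). The 2 groups lay close together without overlapping.

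Mevalonate kinase, Mvk, had 14.998, 11.5 and 14.5 CPM in Dicer1-ifKO and 15.7, 16.3 and 16.8 CPM in WT, with an estimated log2 fold change of -0.26 (SE 0.101, adjusted p = 0.365). The groups did not overlap, but Dicer1-ifKO replicate 2 lay well under the other libraries, and without it the log2 fold change was -0.15. Mvk is thinly covered, with 208 to 296 reads per library in Dicer1-ifKO and 185 to 273 in WT. Its promoter, printed above, carried the 5 CCAAT boxes, and whether the number of boxes goes with the difference between genotypes was not tested. Phosphomevalonate kinase, Pmvk, which adds the next phosphate, had 23.1, 22.6 and 22.8 CPM in Dicer1-ifKO and 25.1, 26.4 and 24.1 CPM in WT, with an estimated log2 fold change of -0.14 (SE 0.0733, adjusted p = 0.518), and its groups did not overlap.

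Idi1, the isomerase that makes dimethylallyl diphosphate, had 36.9, 38.1 and 38.3 CPM in Dicer1-ifKO and 43.5, 43.4 and 38.9 CPM in WT, with an estimated log2 fold change of -0.15 (SE 0.0647, adjusted p = 0.424). All Dicer1-ifKO libraries lay below all WT libraries, though WT replicate 3 came within 1 CPM of them. Fdps, the synthase of farnesyl diphosphate, had 25.7, 27.8 and 29.4 CPM in Dicer1-ifKO and 33.2, 28.8 and 33.3 CPM in WT, with an estimated log2 fold change of -0.19 (SE 0.0768, adjusted p = 0.366), and WT replicate 2 overlapped the Dicer1-ifKO range. In GENCODE M21, 76.4% of the exon bases of Fdps also lie in exons of Gm43738 on the same strand, so its reads could belong to either. Mvd, the decarboxylase that makes isopentenyl diphosphate, and Ggps1, which makes the geranylgeranyl diphosphate used to prenylate proteins, had log2 fold changes of -0.10 and -0.04 (adjusted p = 0.806 and 0.862), with overlapping groups. Exons of other genes also cover 23.4% of the exon bases of Ggps1, with Arid4b on the opposite strand, 17.2% of those of Hmgcs1 and 10.7% of those of Idi1.

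Downstream of squalene, Sqle showed the lowest p of the set. It encodes squalene epoxidase, which adds the oxygen that later becomes the sterol hydroxyl group and is a control point of the pathway. Sqle (chr15:59315081-59331192, plus strand, GRCm38) had 49.0, 44.4 and 41.5 CPM in Dicer1-ifKO and 56.3, 54.4 and 52.8 CPM in WT, and all Dicer1-ifKO libraries lay below all WT libraries. The means were 44.9 ± 3.76 CPM in Dicer1-ifKO and 54.5 ± 1.75 CPM in WT (SD, n = 3 libraries each), with an estimated log2 fold change of -0.28 (SE 0.0647, adjusted p = 0.0994); the unadjusted p was 0.000304. Leaving out single libraries kept the log2 fold change between -0.34 and -0.22.

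Fdft1, the squalene synthase that commits farnesyl diphosphate to sterols (chr14:63145153-63177793, minus strand), had 58.1, 64.6 and 62.1 CPM in Dicer1-ifKO and 71.6, 75.1 and 67.1 CPM in WT, with an estimated log2 fold change of -0.21 (SE 0.0585, adjusted p = 0.179). The groups did not overlap. The 3′ end of Fdft1 runs into the lysosomal protease gene Ctsb on the opposite strand, with 26.96% of its exon bases inside Ctsb exons, and reads of opposite strands are treated here as not separable. Ctsb is the more abundant of the pair, at 66.6 CPM per kilobase in Dicer1-ifKO and 69.8 in WT against 21.5 in Dicer1-ifKO and 24.9 in WT for Fdft1, with its own log2 fold change at -0.07 (SE 0.0464, adjusted p = 0.676). How far Ctsb reads entered the Fdft1 count was not tested.

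Sc4mol, the oxidase that starts removal of the methyl groups at carbon C-4 (chr8:64718139-64733792, minus strand), had 64.9, 60.2 and 60.2 CPM in Dicer1-ifKO and 74.8, 70.4 and 69.4 CPM in WT. The highest Dicer1-ifKO library lay below the lowest WT library. The means were 61.7 ± 2.71 CPM in Dicer1-ifKO and 71.5 ± 2.91 CPM in WT (SD, n = 3 libraries each), with an estimated log2 fold change of -0.21 (SE 0.0555, adjusted p = 0.153). Cyp51, the lanosterol demethylase, had 47.5, 48.8 and 43.4 CPM in Dicer1-ifKO and 49.3, 51.4 and 51.2 CPM in WT, with an estimated log2 fold change of -0.12 (SE 0.0613, adjusted p = 0.499), and its groups lay close without overlapping.

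The other 6 genes of this branch had log2 fold changes between -0.14 and 0.10 with overlapping groups. Dhcr7, the reductase of the last step, had -0.14 (SE 0.0733, adjusted p = 0.518). Nsdhl and Hsd17b7, which act with Sc4mol in the demethylation at C-4, had -0.03 (SE 0.0733, adjusted p = 0.935) and -0.01 (SE 0.0865, adjusted p = 0.982). Lss, which closes the sterol rings, had -0.01 (SE 0.0756, adjusted p = 0.968); its representative is annotated as a retained-intron transcript, and the coding transcript Lss-001 gave -0.01. Tm7sf2, a sterol reductase, and Ebp, a sterol isomerase, were the 2 sterol genes above 0, at 0.10 (SE 0.0955, adjusted p = 0.775) and 0.08 (SE 0.119, adjusted p = 0.871).

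**Figure D2:**
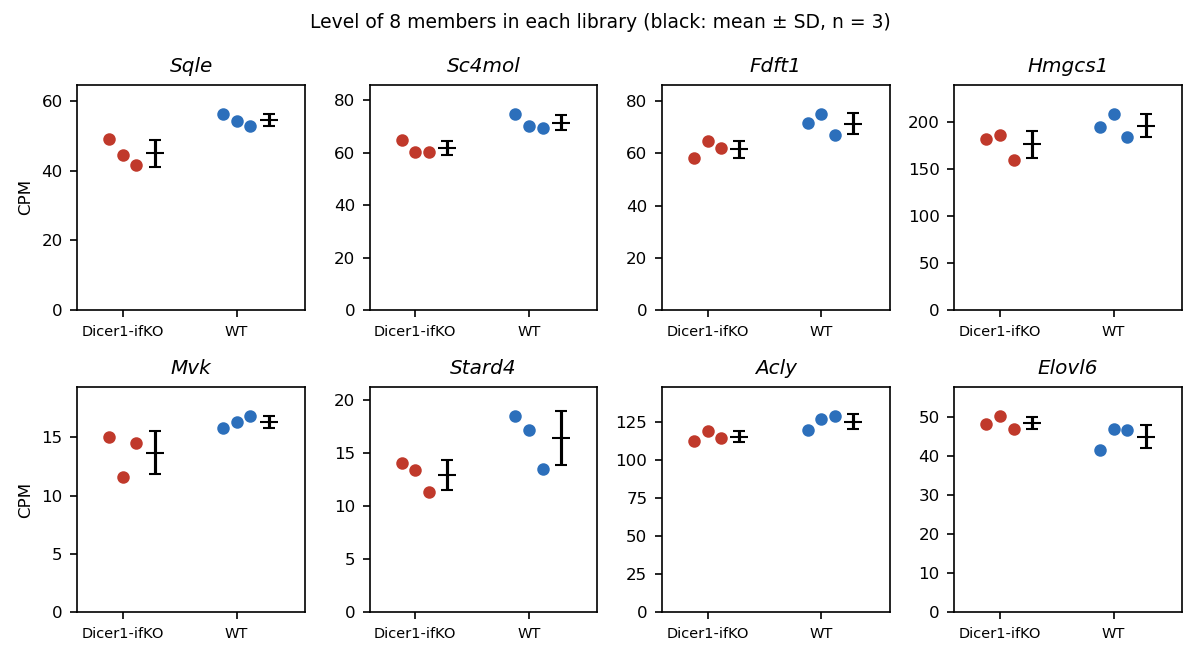
Level in CPM of 8 members in each library, with Dicer1-ifKO left of WT in each panel; points are libraries, and the black bars give the mean ± SD of 3 libraries. In Sqle all 3 Dicer1-ifKO libraries lie below 50 CPM and all 3 WT libraries above it, while WT replicate 3 of Stard4, at 13.5 CPM, lies within the Dicer1-ifKO range.

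Stard4, a soluble carrier that moves cholesterol between membranes and is a known SREBP target, had the most negative estimate of the set. It had 14.02, 13.4 and 11.4 CPM in Dicer1-ifKO and 18.5, 17.2 and 13.5 CPM in WT, with an estimated log2 fold change of -0.34 (SE 0.113, adjusted p = 0.278). WT replicate 3 lay within the Dicer1-ifKO range, so the groups overlapped, and the spread within WT was wide: the means were 12.9 ± 1.39 CPM in Dicer1-ifKO and 16.4 ± 2.56 CPM in WT (SD, n = 3 libraries each).

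In fatty acid synthesis, Acly was the only one of the 12 genes with an unadjusted p below 0.05. It encodes ATP citrate lyase, which makes the cytosolic acetyl-CoA used for both sterols and fatty acids, and had 113, 119 and 115 CPM in Dicer1-ifKO and 120.2, 127 and 129 CPM in WT, with an estimated log2 fold change of -0.12 (SE 0.0485, adjusted p = 0.375). All Dicer1-ifKO libraries lay below all WT libraries. Acss2, the other source of cytosolic acetyl-CoA, had -0.04 (SE 0.0564, adjusted p = 0.844). Its representative transcript runs past the end of Acss2-001 and across Gss on the opposite strand, and Acss2-001 gave -0.10. Exons of other genes cover 13.1% of the exon bases of the representative and 10.6% of those of Acss2-001. In both the largest share is that of Ggt7, on the opposite strand. The dedicated steps of fatty acid synthesis lay within 2 SE of 0: Acaca, the acetyl-CoA carboxylase, had 0.02 (SE 0.0573, adjusted p = 0.948), Fasn, the fatty acid synthase, had 0.05 (SE 0.0463, adjusted p = 0.759), and Me1, which supplies NADPH, had 0.08 (SE 0.0518, adjusted p = 0.667).

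Scd2, the main brain stearoyl-CoA desaturase, had 1072, 986 and 993 CPM in Dicer1-ifKO and 1051, 997 and 1011 CPM in WT, with an estimated log2 fold change of -0.00 (SE 0.0465, adjusted p = 0.987). The groups overlapped fully, with Dicer1-ifKO replicate 1 the highest library and Dicer1-ifKO replicate 2 the lowest. Its paralog Scd1, with similar sequence, had 0.02 (SE 0.0506, adjusted p = 0.914), and reads could be split between the pair. Fads1 and Fads2, the desaturases of polyunsaturated fatty acids, had 0.03 (SE 0.0440, adjusted p = 0.836) and 0.04 (SE 0.0492, adjusted p = 0.817).

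Elovl6, which elongates saturated fatty acids, had 48.3, 50.2 and 47.0 CPM in Dicer1-ifKO and 41.5, 46.8 and 46.7 CPM in WT, with an estimated log2 fold change of 0.10 (SE 0.0629, adjusted p = 0.621). Its groups did not overlap, with the lowest Dicer1-ifKO library just above the highest WT library. Fads1 had the same pattern over a narrower range, with 166, 164 and 166 CPM in Dicer1-ifKO and 163, 161 and 160.0 CPM in WT. Elovl5, the elongase of polyunsaturated fatty acids, had -0.12 (SE 0.0637, adjusted p = 0.530), and Lpin1, a phosphatidate phosphatase of glycerolipid synthesis, had 0.13 (SE 0.0760, adjusted p = 0.592), both with overlapping groups. With a correction for transcript length and GC content, the median of the 12 fatty acid genes was -0.02, in place of 0.03, and that of the sterol genes was -0.13, with 14 of 18 below 0.

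The summed level of the 18 sterol genes was 718, 721 and 680 CPM in Dicer1-ifKO and 787, 786 and 763 CPM in WT, with means of 706 ± 22.6 CPM in Dicer1-ifKO and 779 ± 13.7 CPM in WT (SD, n = 3 libraries each). The highest Dicer1-ifKO library lay below the lowest WT library. The 12 fatty acid genes summed to 2168, 2077 and 2064 CPM in Dicer1-ifKO and 2091, 2096 and 2102 CPM in WT, and the groups overlapped; without Scd2, which makes up a large part of the sum, they were 1095, 1092 and 1070 CPM in Dicer1-ifKO and 1040, 1099 and 1091 CPM in WT.

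Per library, the median deviation of the sterol genes from their own mean over the 6 libraries was -0.02, -0.05 and -0.07 on the log2 scale in Dicer1-ifKO and 0.08, 0.03 and 0.06 in WT. Of the 18 genes, 13, 11 and 16 lay below their own mean in the Dicer1-ifKO libraries and 2, 7 and 3 in the WT libraries. WT replicate 1, the library that stood apart, had the highest median, and without it the median log2 fold change of the sterol genes was -0.10. Dicer1-ifKO replicate 3 had the lowest median, and without it the figure was -0.09, with 14 of 18 genes below 0. By branch, the mevalonate genes had medians of -0.03, -0.07 and -0.05 in Dicer1-ifKO and 0.08, 0.07 and 0.06 in WT. The genes from squalene to cholesterol had -0.02, 0.02 and -0.11 in Dicer1-ifKO and 0.07, 0.03 and 0.06 in WT. In that branch only 4 of 10 genes lay below their own mean in Dicer1-ifKO replicate 2. The fatty acid genes gave 0.03, 0.01 and -0.02 in Dicer1-ifKO and -0.05, 0.01 and -0.00 in WT, with no separation of the groups.

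**Figure D3:**
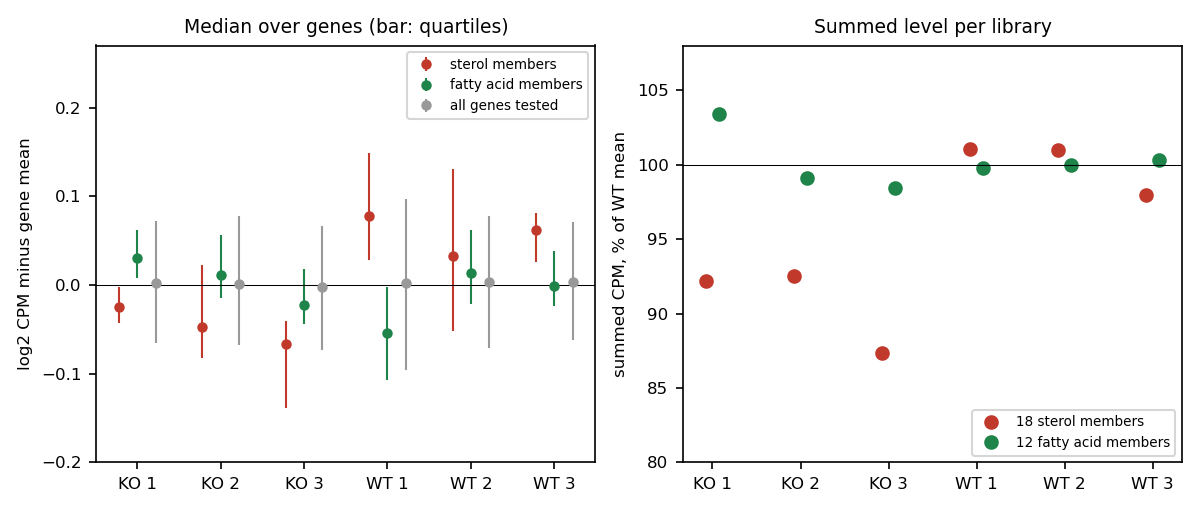
The left panel gives, per library, the median over genes of log2 CPM minus the gene's mean over the 6 libraries, with bars for the quartiles, for sterol, fatty acid and all tested genes; the right panel gives the summed CPM of each set in percent of its WT mean, on an axis that does not start at 0. KO stands for Dicer1-ifKO. The sterol medians lie below 0 in the 3 Dicer1-ifKO libraries and above 0 in the 3 WT libraries, and the fatty acid medians overlap.

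The same comparison was read over transcripts in place of 1 representative per gene. In an edgeR fit of 60500 transcripts, which called 0.0777% of them, 0 of the 117 member transcripts had an adjusted p below 0.05, and 79 had a log2 fold change below 0, where 50.5% of all transcripts did. All 4 Sqle transcripts lay between -0.40 and -0.30, all 7 Sc4mol transcripts between -0.34 and -0.16, all 7 Mvk transcripts between -0.31 and -0.23 and all 4 Stard4 transcripts between -0.40 and -0.25. Other sterol genes had transcripts above 0: all 4 of Ebp, 3 of 4 of Hsd17b7, up to 0.32, and all but 2 of the 14 of Tm7sf2, up to 0.20. Of the 10 Dhcr7 transcripts 8 lay below 0, and the highest was at 0.33. Transcripts of a gene share exons, so reads were counted for each of them and they are not independent. The sterol genes with less than 10% of their exon bases inside exons of other genes were 13, of which 11 had a log2 fold change below 0, with a median of -0.10.

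The wider pathway was read from a list of 52 further genes of sterol and fatty acid metabolism, of which 50 passed the filter and 0 were called by edgeR after Benjamini-Hochberg adjustment over all genes, or by DESeq2. Of the 50, 24 had a log2 fold change below 0, with a median of 0.01, and 3 had an unadjusted p below 0.05, all higher, where 5.63% of all genes were higher at that p; a count of 3 of 50 is near that share.

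The regulators Srebf2 and Srebf1, which encode the SREBP factors, had -0.05 (SE 0.0507, adjusted p = 0.762) and 0.11 (SE 0.0745, adjusted p = 0.670), and Insig1, an SREBP target that holds the factors back, had -0.04 (SE 0.0831, adjusted p = 0.902). The cholesterol exporter Abca1, a target of LXR receptors, had 47.7, 48.1 and 43.0 CPM in Dicer1-ifKO and 39.8, 41.5 and 41.5 CPM in WT, with an estimated log2 fold change of 0.17 (SE 0.0636, adjusted p = 0.324). All Dicer1-ifKO libraries lay above all WT libraries. Elovl2, which elongates very long polyunsaturated fatty acids, had 18.1, 17.4 and 18.4 CPM in Dicer1-ifKO and 14.98, 14.4 and 14.6 CPM in WT, with an estimated log2 fold change of 0.30 (SE 0.0850, adjusted p = 0.182), again without overlap, and Gpam, the acyltransferase that starts glycerolipid synthesis, had 0.16 (SE 0.0631, adjusted p = 0.342).

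Per kilobase of transcript, Scd2 was the most abundant member, at 186 CPM in Dicer1-ifKO and 187 in WT. Hmgcs1 led the sterol genes at 54.4 in Dicer1-ifKO and 60.5 in WT, near Fads1 at 47.8 in Dicer1-ifKO and 46.6 in WT. Sc4mol stood at 30.2 in Dicer1-ifKO and 35.0 in WT. Stard4 was the lowest, at 2.54 in Dicer1-ifKO and 3.22 in WT. Ggps1 was left out of this order because its matched length covers coding sequence only. The sterol transcripts were shorter, with a median of 2209 bases against 4629 for the fatty acid genes and 2747.5 for all genes, and across 14647 genes the log2 fold change had a Spearman correlation of 0.243 with length. With the correction for length and GC content given above, the sterol median was -0.13.

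**Figure D4:**
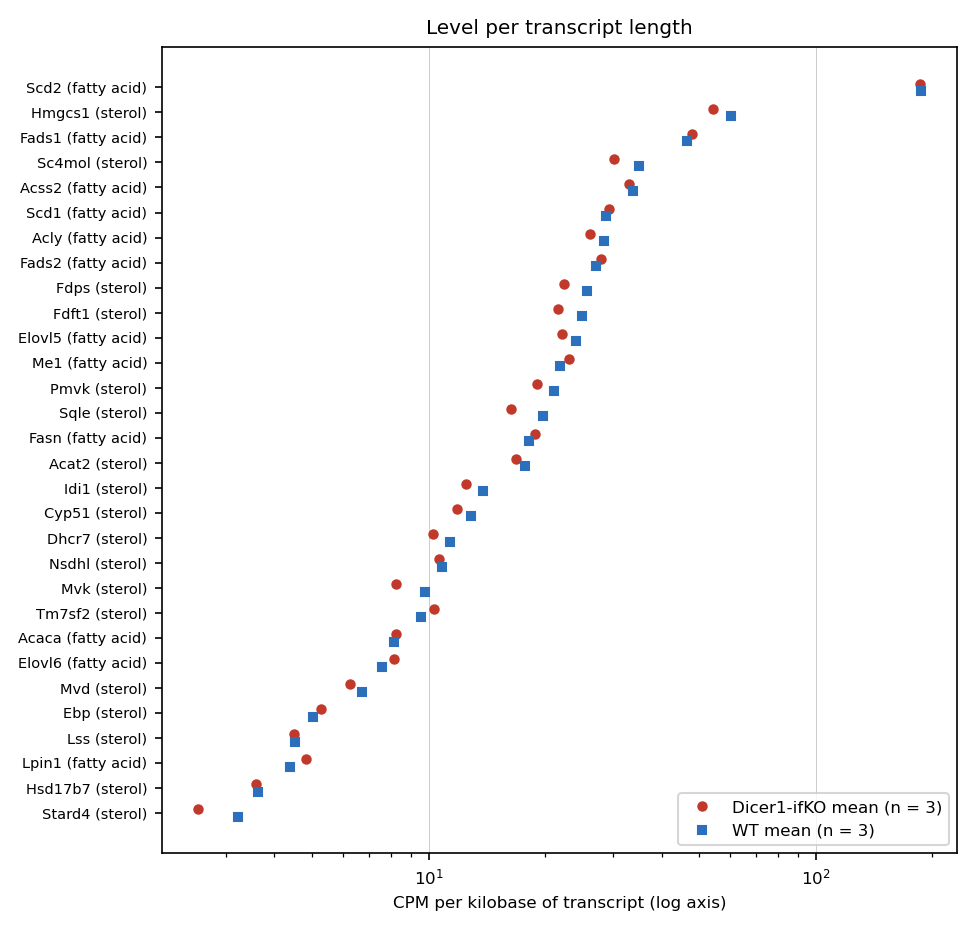
Level per kilobase of transcript for the members with a usable length, in CPM per kilobase on a log axis, with Dicer1-ifKO above WT for each gene. Scd2 stands highest, and Stard4, at 2.54 in Dicer1-ifKO and 3.22 in WT, lowest.

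Markers of the cells that make brain cholesterol were set beside the sterol genes. The 12 oligodendrocyte markers summed to 4182 to 4826 CPM in Dicer1-ifKO and 4054 to 4970 CPM in WT, with a median log2 fold change of -0.03. The 10 astrocyte markers summed to 3680 to 3832 CPM in Dicer1-ifKO and 3462 to 3645 CPM in WT, so the groups did not overlap, with a median of -0.00; without Slc1a2 the sums overlapped, at 1602 to 1630 CPM in Dicer1-ifKO and 1615 to 1663 CPM in WT. The 6 precursor markers gave 158 to 159 CPM in Dicer1-ifKO and 155 to 171 CPM in WT.

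Summed markers of dentate granule cells were 340 to 363 CPM in Dicer1-ifKO and 380 to 398 CPM in WT, without overlap. That gap rested on Calb1, a calcium-binding protein gene called lower in Dicer1-ifKO by edgeR (log2 fold change -0.27, SE 0.0520, adjusted p = 0.0323). Without Calb1 the sums were 238 to 254 CPM in Dicer1-ifKO and 247 to 271 CPM in WT, and overlapped. The 8 pyramidal neuron markers gave 5397 to 5788 CPM in Dicer1-ifKO and 5276 to 5414 CPM in WT, which overlapped by little. Without Camk2a the sums were 1901 to 2075 CPM in Dicer1-ifKO and 1957 to 2104 CPM in WT, and overlapped. The sums without Slc1a2, Calb1 or Camk2a, the marker with the largest difference in CPM in each list, were added after seeing the data. The groups also overlapped for markers of inhibitory neurons, endothelium, choroid plexus, erythrocytes, and thalamus and striatum. Of the 6 choroid plexus markers only 3 passed the filter and entered the sum. No marker that passed the filter was at 0. The part of cell composition in the sterol difference was not tested.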

How the data were processed

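Mouse hippocampal mRNA was sequenced on an Illumina instrument after a stranded TruSeq preparation, per the labels' protocols. The submitters' processing notes name GRCm38 and mm10 as builds and list the tools TopHat2 2.0.6, Bowtie2 2.0.5, CASAVA 1.8.2, DESeq2 and SAMtools 0.1.18. Which program counted the reads, on which annotation and with which strand setting, is not given in the sources used here. Each deposited file lists 76938 transcripts with a raw count and a normalised count, per the file headers. The deposited counts are whole numbers, and a read in an exon shared by transcripts was counted for each of them. The deposited normalised values (unit signal) are the count divided by 1 factor per library, per the file headers and the values, and were not tested.

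The design had assumed counts per gene, so the transcript with the highest mean raw count stood for each symbol. The counts were fitted with edgeR 4.0.16 in R 4.3.3: filterByExpr with a minimum count of 10, TMM scaling, the quasi-likelihood test of genotype and Benjamini-Hochberg adjustment over 17405 genes, at a threshold of 0.05. DESeq2 1.42.0 and the alternatives in the closing section were run on the same counts. Levels are CPM after TMM scaling. At these depths 3 counts correspond to 0.145 to 0.254 CPM. The common biological coefficient of variation was 0.0464. Replicates of a genotype are pools of different mice, and the chi-square per degree of freedom between libraries of a genotype was 1.75 to 4.35, above sampling noise. On simulated data with 200 of 17405 genes changed, the test recovered 52.8% of genes changed 1.25-fold and 91.6% of those changed 2-fold, with 5.05% false calls. The simulation gave each gene the spread fitted for its level, with no outlying library and no trend with length, so these rates may not hold in the real libraries. Changes smaller than 1.25-fold were not simulated.

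Whether opposite strands were separated was checked on 22 genes of which at least 90% lies inside opposite-strand exons of well-covered genes. Their read density was a median 1.90 times that of the covering gene, and the ratio was at least 0.5 in 95.5%. Genes with very few reads of their own had been left out beforehand, and separated strands could give such genes. The check therefore cannot settle the strand setting, and opposite-strand reads are treated as not separable. Exon overlaps and lengths come from GENCODE M21, and 84.2% of the transcripts had identical coordinates there. Values are given in full for at most 14 members with unadjusted p below 0.05 or groups that do not overlap, taken in order of p, and for the highest member per length of each arm; of other pathway genes, a fixed few, among them Srebf1, Srebf2 and Insig1, and the 4 with the lowest p were to be named, and some of these are not reported here. Members and lists were chosen with earlier results of these data known.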

Additional observations from a re-analysis of the deposited data

How the results depend on the processing

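The number of genes called was 28, against 151 without a filter on low counts, 55 with DESeq2, 7 with counts summed over transcripts and 47 transcripts in the fit over every transcript, a fit added after seeing the data; leaving out 1 library gave 6 (without Dicer1-ifKO replicate 1) to 105 (without WT replicate 2), with 14 without WT replicate 3 and 18 without WT replicate 1 or Dicer1-ifKO replicate 2. The number of members called was 0, and 1 (Sqle) with DESeq2 and without the filter. The sterol median ranged from -0.14 to -0.087 when 1 library was left out; it was -0.090 with the length and GC offset without WT replicate 1, and -0.10 without the members that overlap other genes, a choice made after seeing the data. The fatty acid median was -0.015 with the offset and -0.0087 with the offset without WT replicate 1, and 0.026 to 0.045 when 1 library was left out. The cause of these shifts was not tested. The fit did not pair the samples by replicate number, because the labels do not say that a number marks a shared litter, batch or day. Same-numbered libraries correlated at -0.0673, 0.0725 and -0.111 in their deviations from the genotype mean, and not every library correlated best with its own number. With 3 libraries per genotype, 1 of which stood apart, these correlations cannot tell whether the numbers mark shared batches. With the replicate block, 22 genes and 0 members were called, and the sterol and fatty acid medians were -0.13 and 0.03.

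Of the 31 members, 21 kept the sign of their log2 fold change in all 13 other settings and 10, all with estimates within 0.1 of 0, changed it. With the length and GC offset, Ggps1 was 0.0012, Nsdhl 0.0061, Acaca -0.041 and Fasn -0.031. With the offset without WT replicate 1, Ggps1 was 0.019, Nsdhl 0.014, Hsd17b7 0.00073, Acaca -0.049, Fasn -0.021, Scd1 -0.025 and Scd2 0.0032. With counts summed over transcripts, Lss was 0.012 and Hsd17b7 0.11, and without the filter Scd2 was 0.00023. When 1 library was left out, Lss ranged from -0.073 to 0.062, Hsd17b7 from -0.051 to 0.021, Ebp from -0.037 to 0.14, Acss2 from -0.092 to 0.0022, Acaca from -0.025 to 0.074, Scd1 from -0.019 to 0.049 and Scd2 from -0.042 to 0.020. The largest SE among the members were those of Mvk, Mvd, Stard4 and Ebp, at 0.101 to 0.119, with 113 to 296 reads per library; Tm7sf2, with 152 to 291 reads, had an SE of 0.0955. The part of depth in these errors was not tested.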
